A study of Mus musculus with 4 samples.

Results

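The control without doxycycline is 1 library of neural precursors that were differentiated from the A2lox line of mouse embryonic stem cells, which takes up constructs switched on by doxycycline. It is 1 of the 4 libraries of the study, and the other 3 are Geminin knockdown libraries from independent experiments. All 4 cultures carried the inducible Geminin knockdown construct and were grown as a monolayer for 5 days in N2B27, a medium without serum in which stem cells turn into neural tissue. The knockdown cultures received 500 ng doxycycline from day 3, and the control received none. A culture given doxycycline but lacking the construct was not analysed here. The stem cells had been kept on mouse embryonic fibroblasts before differentiation. The library was chosen by its label, and its level of each feature is the mean of the values that 3 deposited tables give for it. Levels are in FPKM, fragment counts scaled by transcript length and by the size of the library, so levels of different genes can be set beside each other. The control has no replicate, so its levels carry no error between cultures and no difference below was tested. The knockdown libraries are given beside it only as values from other cultures of the same line.

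Neural precursors are dividing cells of the early neural tube that keep neuronal differentiation in check with SoxB1 transcription factors and Notch signalling. Stem cells that lose pluripotency without serum take up such a fate by default, passing through a state like the epiblast of the early embryo. Retinoic acid, Wnt and FGF signals then set the position along the body axis, which is read from regional transcription factors and the Hox genes. The RNA came from whole cultures, in which fewer cells of a type and less RNA per cell cannot be told apart.

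The depth was modest. In genes with 1 annotated transcript, FPKM times transcript length fell into steps, and the lowest step gave about 5930000 fragments for the control. The knockdown libraries came to about 5840000, 6810000 and 5650000 fragments. A level of 1 FPKM in a transcript of 2 kb thus rests on about 11.9 fragments, and 1 fragment there is worth 0.0844 FPKM. A transcript of that length with no fragment could still have a level of up to 0.253 FPKM, the level of 3 fragments. Gmnn, which encodes Geminin, had 113 FPKM in the control and 27.0, 65.9 and 27.9 in the knockdown libraries.

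Of 21690 features, 55.4% were at or above 1 FPKM in the control, 34.1% at or above 10 and 4.77% at or above 100. The knockdown libraries 1, 2 and 3 had 55.4%, 55.7% and 56.8% of features at or above 1 FPKM. In the control 5985 features were listed at 0, and the median over all features was 2.24 FPKM. These shares are the background against which the gene lists below are read.

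The 4 promoters below are shown because they belong to marker genes at opposite ends of the range: Sox2 and Nes are among the precursor markers with high levels, whereas Dlx2, a factor of the ventral forebrain, and Gfap, an astrocyte filament, were listed at 0. Each line is the 250 bases before the annotated start, in RefSeq's GRCm38.p6 and on the gene's own strand, with every CG in capitals. Sox2 lies at chr3:34649745-34649994 on the plus strand, Nes at chr3:87970843-87971092 on the plus strand, Dlx2 at chr2:71546755-71547004 on the minus strand and Gfap at chr11:102897201-102897450 on the minus strand.
Sox2: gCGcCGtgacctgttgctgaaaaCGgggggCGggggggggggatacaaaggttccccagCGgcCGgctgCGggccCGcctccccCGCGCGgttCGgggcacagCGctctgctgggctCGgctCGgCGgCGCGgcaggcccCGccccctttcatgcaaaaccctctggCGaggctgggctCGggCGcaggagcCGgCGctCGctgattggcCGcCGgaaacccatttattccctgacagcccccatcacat
Nes: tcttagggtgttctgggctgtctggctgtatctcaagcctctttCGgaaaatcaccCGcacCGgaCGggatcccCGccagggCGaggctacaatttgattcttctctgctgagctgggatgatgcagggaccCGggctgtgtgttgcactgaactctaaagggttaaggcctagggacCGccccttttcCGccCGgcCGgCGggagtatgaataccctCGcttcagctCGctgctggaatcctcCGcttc
Dlx2: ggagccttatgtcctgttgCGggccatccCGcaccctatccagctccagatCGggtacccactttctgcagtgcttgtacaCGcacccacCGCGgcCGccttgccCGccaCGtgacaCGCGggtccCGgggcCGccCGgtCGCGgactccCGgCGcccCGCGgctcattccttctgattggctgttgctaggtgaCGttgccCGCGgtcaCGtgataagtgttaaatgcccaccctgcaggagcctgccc
Gfap: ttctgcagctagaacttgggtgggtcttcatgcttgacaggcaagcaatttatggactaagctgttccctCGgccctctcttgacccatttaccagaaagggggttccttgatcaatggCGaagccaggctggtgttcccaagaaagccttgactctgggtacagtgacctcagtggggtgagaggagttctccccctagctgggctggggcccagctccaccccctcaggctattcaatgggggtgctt
The Sox2 window holds 27 CG pairs, Nes 15, Dlx2 24 and Gfap 2. Over the 32851 windows of that table the median was 6, and 92.1% held at least 1 CG, which reads the same on both strands. Dlx2 at 0 FPKM therefore had nearly as many as Sox2 at 135 FPKM, while Gfap had few.

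All 7 marker genes of neural precursors were present at 15.9 FPKM or more. Lin28a, an RNA-binding protein that blocks let-7 maturation in early cells, led them with 459 FPKM, against 423, 169 and 193 in knockdown libraries 1, 2 and 3. Cdh2, the cadherin of neuroepithelium, had 145 FPKM in the control and 139, 153 and 123 in the knockdown libraries. Sox2, a SoxB1 factor shared by stem cells and neural precursors, had 135 FPKM and 140, 203 and 154 in the others. For Cdh2 the control lay inside the range of the other cultures, whereas for Lin28a it was the highest and for Sox2 the lowest of the 4. Nes, the intermediate filament of neural progenitors, had 100.5 FPKM, Sox1, the SoxB1 factor confined to neural fate in early embryos, had 64.0, and Pax6 had 55.8. Zic1, a zinc finger factor of the dorsal neural tube, was the lowest marker with 15.9 FPKM, and 18.6, 11.6 and 24.2 in the knockdown libraries. Every marker of the labelled cell type was thus present, though Sox2 and Lin28a are also genes of pluripotent cells, whose other genes are given below.

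**Figure D1:**
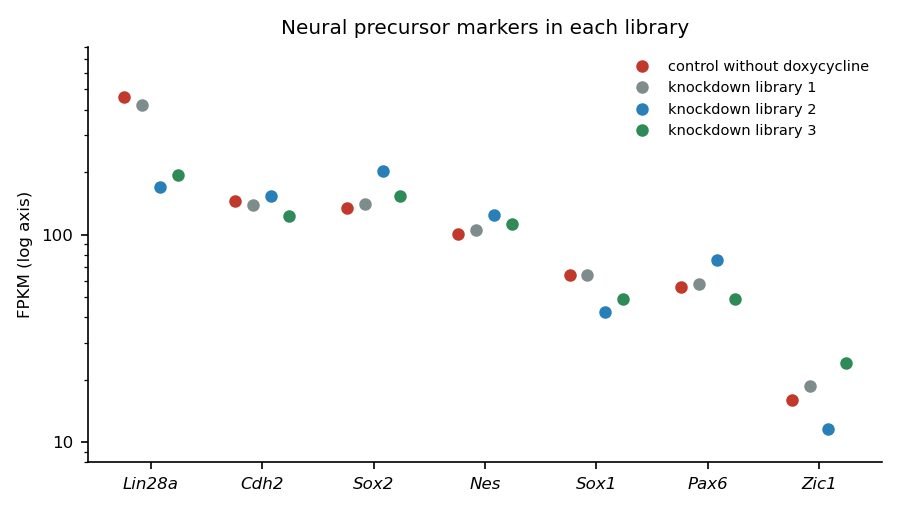
FPKM of the 7 neural precursor markers on a log axis, with 1 point for each library. The control runs from 459 for Lin28a to 15.9 for Zic1, and every point is above 10.

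In the wider list of neural precursor genes 34 of 34 members were at or above 1 FPKM and 28 at or above 10. Of all features 55.4% and 34.1% were, and the members were chosen with earlier results of these data known. The median of the list was 30.3 FPKM, against 2.24 over all features. Vim, an intermediate filament of progenitors and of mesenchyme, had 388 FPKM, and Cd24a, a surface protein of neural precursors, had 206. The SoxC factors Sox11 and Sox4, known from precursors and young neurons, had 82.7 and 79.1. Sox3, the remaining SoxB1 member, had 82.5, so the order within SoxB1 was Sox2, Sox3 and then Sox1. The RNA-binding proteins Msi1 and Msi2 stood at 73.3 and 57.8. The lowest members were Sox9, a factor of radial glia and neural crest, with 2.68 FPKM and Zic5 with 2.32.

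Across 34 families of transcription factors with 288 features, 144 were at or above 1 FPKM and 2 were at or above 100. Over all features these shares were 55.4% and 4.77%, so the share at or above 1 FPKM was near that of all features. Tead2, a DNA-binding partner of the YAP coactivator, was the highest with 179 FPKM, followed by Sox2. Id3 with 89.9, Sox11, and Id2 with 82.6 came next. The Id proteins hold bHLH differentiation factors inactive. Families differed widely in how many members were present. All 8 E2f, all 4 Tead, all 4 Sall and all 3 Meis members were at or above 1 FPKM. In contrast 1 of 8 Lhx, 1 of 6 Dlx, 2 of 13 Nkx and 2 of 13 Tbx members were, and 0 of 3 Cdx, 0 of 4 Neurod and 0 of 3 Neurog members.

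Regional factors split by position. Of 16 hindbrain and spinal cord factors outside the Hox clusters 12 were at or above 1 FPKM, with a median of 5.17 FPKM. Of 26 forebrain and eye field factors 8 were, with a median of 0.184 FPKM, against 55.4% and 2.24 FPKM for all features. Pax6, which also marks forebrain and eye, was counted among the precursor genes and not in this list. Meis2 and Meis1, homeodomain cofactors of Hox proteins, had 56.4 and 44.2 FPKM. Egr2, which marks single segments of the hindbrain, had 1.55.

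Among forebrain factors, Nr2f2 and Nr2f1 led with 37.9 and 36.0 FPKM. Both are nuclear receptors that are also made in the hindbrain and outside the brain. Sp8 had 20.8 FPKM. Otx2, needed for forebrain and midbrain, had 1.51 FPKM in the control and 2.41, 1.83 and 2.07 in the others. Of the 26 members 9 were below 0.1 FPKM: Six3, a forebrain and eye determinant, had 0.0882, and the eye field factor Rax, Hesx1 and Dlx2 were listed at 0.

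In the midbrain and boundary list 9 of 20 members were at or above 1 FPKM, against 55.4% of all features. Irx3 and Irx2, Iroquois factors of the neural tube behind the forebrain, were the highest with 57.1 and 26.0 FPKM. Foxb1 had 11.2 and Gbx2, which sets the front edge of the hindbrain, 6.85. Other genes of the midbrain-hindbrain boundary were low. Lmx1b had 2.41 and Fgf17 1.24 FPKM, and several were below 1. Of these, Wnt1 had 0.848, Pax2 0.731, Fgf8 0.697, En1 0.456 and En2 0.276 FPKM. At this depth such levels rest on few fragments.

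**Figure D2:**
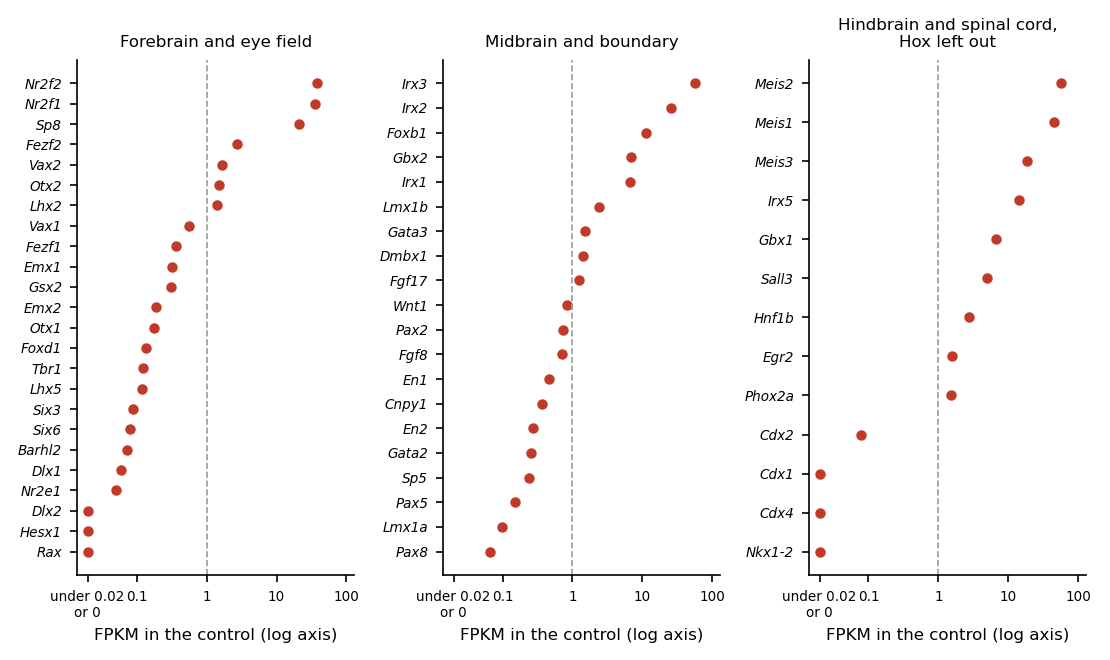
Control FPKM of each regional factor on a log axis in 3 panels, with a dashed line at 1 FPKM and genes ordered by level. A few list members are not drawn. Meis2 and Irx3 lie above 50 FPKM, whereas no gene drawn in the forebrain panel does, where Pax6 is not included.

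The Hox genes extend this order. Hox clusters are switched on from the 3′ end, and members of low paralog number pattern the hindbrain while those of high number pattern the trunk. Of 39 Hox genes 7 were at or above 1 FPKM, against 55.4% of all features, and all 7 were in paralog groups 1 to 4. These groups have 12 members and held 96.4% of the summed Hox level. Hoxb2, on chromosome 11 from 96212945 to 96215328 (mm9), had 33.6 FPKM, and 26.0, 31.2 and 20.0 in the knockdown libraries. Hoxa2, on chromosome 6 from 52112509 to 52114830 (mm9), had 26.3 FPKM, and 26.7, 30.9 and 25.9 in the others. Both genes of group 2 are required in the rostral hindbrain, and both were above 20 FPKM in all 4 cultures. Hoxb3 had 7.82 FPKM, Hoxa3 5.13, Hoxb1 3.92 and Hoxb4 1.62.

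Beyond group 4 the levels were below 1 FPKM, and many were near the limit of the depth. Hoxa5 and Hoxa6 were the highest of them with 0.977 and 0.752 FPKM. The 11 genes of groups 5 to 8 summed to 2.40 FPKM in the control, with 0 members at or above 1, and 4 listed at 0. In the knockdown libraries the same genes summed to 2.16, 22.3 and 20.1. The 16 genes of groups 9 to 13 summed to 0.886 FPKM in the control, and 1.41, 3.21 and 3.27 in the others. By cluster, Hoxa summed to 41.5 and Hoxb to 47.4 FPKM, whereas Hoxc and Hoxd summed to 1.35 and 1.15. Hoxa3 to Hoxa6 are listed at 1 shared position with other features, so the split of reads between them is uncertain.

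**Figure D3:**
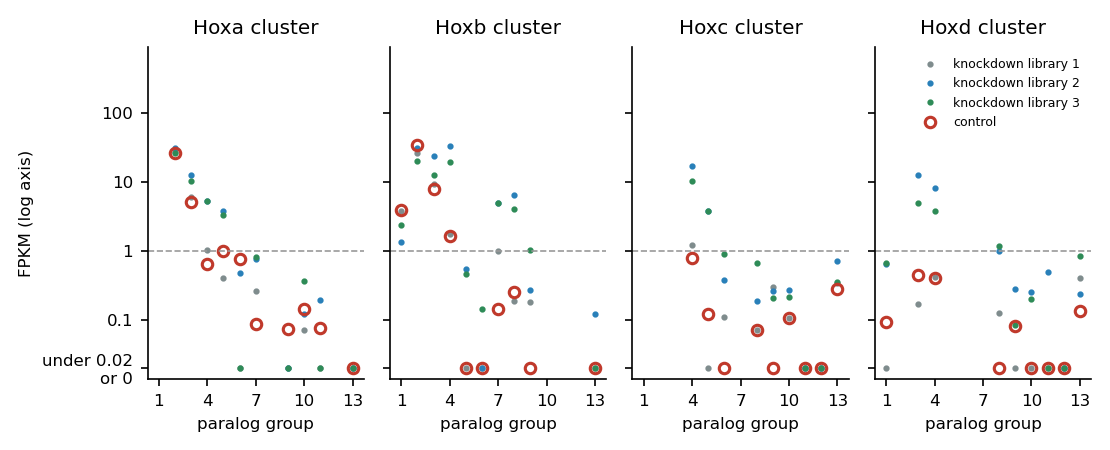
FPKM on a log axis against paralog group for the 4 Hox clusters, with open circles for the control and dots for the knockdown libraries. Not every gene is drawn. Control levels reach 33.6 for Hoxb2, and every control level beyond group 4 is below the dashed line at 1 FPKM.

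Genes of dorsoventral identity were mixed, with 12 of 25 at or above 1 FPKM, against 55.4% of all features. Gli3, the repressor arm of hedgehog signalling, had 37.3 FPKM and Ptch1, the hedgehog receptor, 14.3. Pax3 and Pax7, factors of the dorsal neural tube, had 16.7 and 5.42, and Dbx1, a factor of an intermediate progenitor domain, had 9.73. Other dorsal genes were lower than these, such as Olig3 with 2.63 FPKM and Gdf7 with 0.384. Of the ventral factors, Nkx6-2 had 1.48 FPKM and several were below 1. Nkx6-1 had 0.578 FPKM, Olig2 0.137, Shh 0.124 and Nkx2-2 0.102, and Nkx2-1 was listed at 0. Foxa2, which marks floor plate as well as endoderm, had 5.10. The levels of dorsal and ventral genes thus overlapped, although Pax3 and Pax7 were above every ventral factor named here.

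The retinoic acid pathway held the most abundant gene of any list. Crabp1, a cytoplasmic retinoic acid binding protein of the hindbrain and neural crest, had 2339 FPKM, and 2140, 1891 and 1873 in the knockdown libraries. It ranked 9 among features that are not short RNAs, between ribosomal protein genes. Its relative Crabp2 had 843 FPKM. The receptors Rxra, Rxrb, Rara, Rarg and Rarb had 21.1, 17.6, 15.0, 10.2 and 4.77 FPKM. Of the enzymes that degrade retinoic acid, Cyp26a1 had 18.4, Cyp26b1 9.73 and Cyp26c1 0.113. Of those that make it, Aldh1a1 had 1.34, Aldh1a2 0.520 and Aldh1a3 0.0959. In all 15 of 19 members were at or above 1 FPKM, against 55.4% of all features.

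Factors that drive neuronal differentiation were mostly low. Of 26 proneural and differentiation factors 7 were at or above 1 FPKM, below the share of all features. Btg2, a gene of precursors about to divide into neurons, and Hes6, an antagonist of Hes1, led with 14.9 and 14.6 FPKM. Neurog1 and Neurog2 had 0.524 and 0.456 FPKM, and Neurod1 0.736. Atoh1, Ptf1a and Neurod6 were listed at 0.

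Of 39 measured neuronal genes 21 were at or above 1 FPKM, 53.8% against 55.4% of all features. Stmn1, a tubulin regulator that dividing cells also make, had 308 FPKM. Stmn2, a growth cone protein, had 66.9 FPKM, and 75.4, 44.6 and 40.5 in the knockdown libraries. Tubb3, the neuronal beta-tubulin, had 22.2 FPKM, and 24.0, 138 and 75.8 in the others. The control and knockdown library 1 were close for both genes. Crmp1, Nefl, Dpysl3 and Gap43 lay between 31.3 and 25.4 FPKM. Map2 had 7.28 and Dcx, which stabilises microtubules in migrating neurons, 0.454. Genes of synapses and transmitters were low: Snap25 had 0.560 FPKM, Gad2 0.113 and Slc17a7 0.224, while Th, Gad1 and Slc17a6 were listed at 0. Syn1 was also listed at 0, but its estimate had failed in the deposited tables.

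Of 18 glial genes 6 were at or above 1 FPKM, against 55.4% of all features. Apoe and Glul, which many cell types make, accounted for the 2 above 100, with 141 and 113 FPKM. Pdgfra had 8.91 and Aldh1l1 1.22. The astrocyte and oligodendrocyte genes Gfap and Olig1 were listed at 0, Aqp4 had 0.251 and Sox10 0.183. Slc1a3, a glutamate transporter of radial glia, had 3.06.

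Residual pluripotency genes were present at low to moderate levels. Of 31 core and naive genes 22 were at or above 1 FPKM, with a median of 3.91, against 55.4% and 2.24 for all features. Apart from Sox2, the highest were Trim71, a let-7 target of early cells, with 59.5 and Sall4 with 41.6 FPKM. Pou5f1, which encodes OCT4, had 16.9 FPKM, and 22.4, 45.2 and 69.5 in the knockdown libraries. The control was the lowest of the 4. Klf5 had 19.3, Nanog 3.91, Zfp42 3.74 and Esrrb 0.417 FPKM, and Nr0b1, Prdm14 and Tcl1 were listed at 0. Nanog overlaps a feature named for a copy of it, so its level is uncertain. Of 19 primed epiblast genes 17 were at or above 1 FPKM, but several of these are neural genes too, such as Sox3 and Zic2. Igfbp2 had 219, Lin28b 59.5 and Dnmt3b, a DNA methyltransferase, 43.6 FPKM, whereas Fgf5, a defining gene of the epiblast, had 0.200.

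Markers of other lineages were unevenly present, beside the 55.4% of all features at or above 1 FPKM. Mesoderm genes were among the lowest, with 5 of 28 at or above 1 FPKM. Fgf3, Pdgfra and Snai1, which other tissues make too, led it with 9.28, 8.91 and 7.31. T, the brachyury gene of the primitive streak, had 1.58 FPKM and Tbx6 0.304, and Mesp1, Mixl1, Msgn1 and Myog were listed at 0. Blood and endothelial genes had 3 of 20 members at or above 1 FPKM, namely Cd68 with 4.38, Flt1 with 3.58 and Tek with 2.75, and Ptprc and Gata1 were listed at 0. Among genes of skeletal and cardiac muscle 7 of 16 were at or above 1 FPKM. Acta1, the skeletal actin, had 44.5 FPKM, Tnnc1 10.4, Actc1 9.55, Myh7 3.03, Des 1.89, Tnni3 1.73 and Myh6 1.09. Tnnt2 had 0.164, and Ckm, Myl4 and Myl7 were listed at 0. Trophoblast genes had 6 of 16 at or above 1 FPKM. Peg10, an imprinted gene not restricted to trophoblast, had 251 FPKM, Krt7 10.4, Tfap2c 5.08, and Rhox6 3.13, and Esx1 and Rhox9 lay just above 1. Cdx2 and Elf5 had 0.0789 and 0.0780.

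Of 27 endoderm genes 15 were at or above 1 FPKM, a share of 55.6% that is near the 55.4% of all features. The 5 at or above 100 encode secreted matrix proteins that many cell types make: Sparc had 532, Lamb1 219, Col4a1 207, Lama1 179 and Col4a2 120 FPKM. Transcription factors of extraembryonic and definitive endoderm were present as well. Gata4 had 31.0 FPKM, and 33.1, 32.7 and 38.0 in the knockdown libraries. Gata6 had 16.4 FPKM, and 13.4, 16.2 and 20.1 in the others. The 4 cultures were close for both genes. Dab2, an endocytic adaptor of primitive endoderm, had 32.8, Sox7 16.9, Foxa2 5.10 and Sox17 3.51. Alb, Afp, Apoa1 and Pdx1, genes of liver, yolk sac and pancreas, were listed at 0, and Ttr had 0.151. The list summed to 1414 FPKM in the control and to 1381, 1668 and 2017 in the knockdown libraries. Most of this came from the 5 matrix genes, which summed to 1258, 1228, 1477 and 1817 in the same order. The other 22 members summed to 156 FPKM in the control and to 153, 190 and 200.2 in the others. Whether these transcripts came from separate cells was not tested.

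Epithelial genes were also well represented, with 24 of 31 at or above 1 FPKM, against 55.4% of all features. The simple keratins Krt18 and Krt8 had 155 and 139 FPKM, Cdh1, the cadherin of epithelia and of stem cells, 65.2, and Epcam 46.3. The claudins Cldn6 and Cldn4 had 26.4 and 22.7. Genes of stratified epidermis were low, with Trp63 at 0.519 and Krt5 at 0.103 FPKM and Krt14 listed at 0. The list summed to 642 FPKM in the control and to 700, 163 and 304 in the knockdown libraries, so the control and knockdown library 1 were close.

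Of 22 neural crest and placode genes 17 were at or above 1 FPKM, against 55.4% of all features, and 11 at or above 2. Ednrb, an endothelin receptor also made in neural progenitors, had 99.2 FPKM, and Twist1 and Snai1 had 8.48 and 7.31. The defining crest genes Snai2, Sox10 and Foxd3 had 1.02, 0.183 and 0.0706. Fibroblast genes reached 1 FPKM in 17 of 25 members, against 55.4% of all features. Tagln, Acta2 and Fn1, which other contractile or adherent cells make too, had 160, 107 and 85.3 FPKM. Col1a1, Col3a1 and Dcn, which define fibroblasts, had 7.70, 1.92 and 0.831. The fibroblast list summed to 432 FPKM in the control and to 475, 242 and 604 in the others. Tagln, Acta2 and Fn1 made up 352 FPKM of it in the control and 393, 141 and 441 in the others. The other 22 members summed to 80.04 FPKM in the control and to 82.1, 101 and 164 in the others, so the low total of knockdown library 2 lay in those 3 genes. The part of feeder cells in these levels was not tested.

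**Figure D4:**
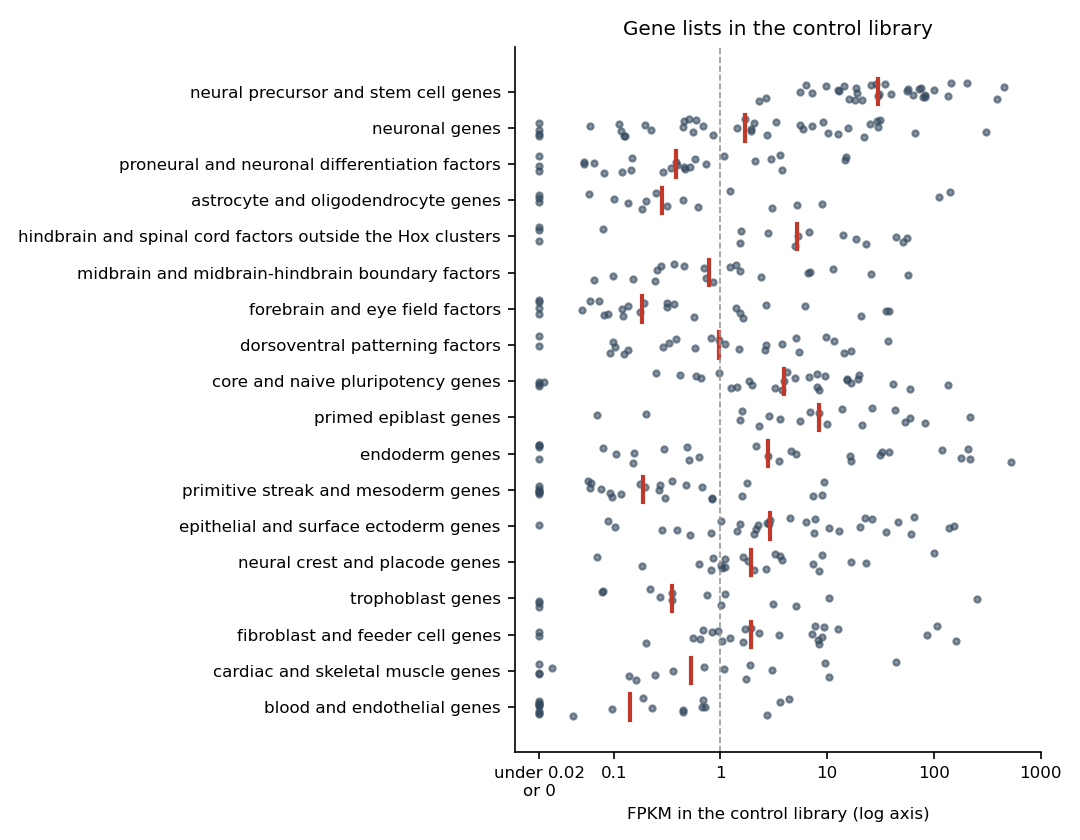
Control FPKM on a log axis for every measured member of 18 gene lists, 1 dot for each gene, with a red bar at the median and a dashed line at 1 FPKM. Neural precursor genes have a median of 30.3 and no member below 1, whereas the forebrain, mesoderm and blood lists have medians below 0.2.

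Genes of cell division were high. All 33 cell cycle and replication genes were at or above 1 FPKM and 16 at or above 100, against 4.77% of all features. Pcna, the replication clamp, had 461 FPKM, Cdk4 339, Mcm7 239, Top2a 233 and Mki67 122. Among D cyclins, Ccnd2 had 107, Ccnd1 67.9 and Ccnd3 59.4. Inhibitors of the cycle were also present, with Cdkn1c at 144 FPKM, Cdkn1a at 36.3 and Cdkn2a at 17.8.

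The oncofetal genes, which early embryos share with tumours, were high. Of 14 members 12 were at or above 10 FPKM, against 34.1% of all features. Besides Lin28a, Igf2bp1 had 166, Igf2bp3 138, Hmga2 114, Lin28b 59.5 and Mycn 39.6 FPKM. Igf2bp1 had 153, 119 and 144 in the knockdown libraries, and Hmga2 had 109, 135 and 104. Hmga1 was listed at 0 with a failed estimate.

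Where a precursor or widely made form was paired with a neuronal form and both had estimates, the neuronal form was lower in the control. Actl6a, a subunit of the SWI/SNF complex in precursors, had 93.3 FPKM, while its neuronal counterpart Actl6b was listed at 0. Ss18 was 16.8 times Ss18l1. Ptbp1, which represses neuronal splicing, was 4.90 times Ptbp2, and 4.68, 3.26 and 4.60 times in the knockdown libraries. Tubb5 had 1264 FPKM and was 56.9 times Tubb3. Map4 was 7.01 times Map2, and Eno1 was 73.3 times Eno2, the neuronal enolase. Eno1 shares its position with the predicted gene Gm5506, listed at 1720 FPKM, so its own level of 116 is uncertain. Phf10 could not be set against Dpf1, because its estimate had failed.

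Other pairs differed as well. Ezh2, the Polycomb methyltransferase of dividing cells, was 31.4 times Ezh1, and Smarca4, a SWI/SNF ATPase, was 12.6 times Smarca2. Dnmt3b was 3.15 times Dnmt3a. Cdh2 was 2.22 times Cdh1, so the neural and the epithelial cadherin were both abundant. Fgfr1 was 1.18 times Fgfr3, and 1.78, 0.902 and 1.40 times in the knockdown libraries, so their order was not the same in every culture. Ccnd1 was 0.635 times Ccnd2 and lower than it in all 4 libraries.

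**Figure D5:**
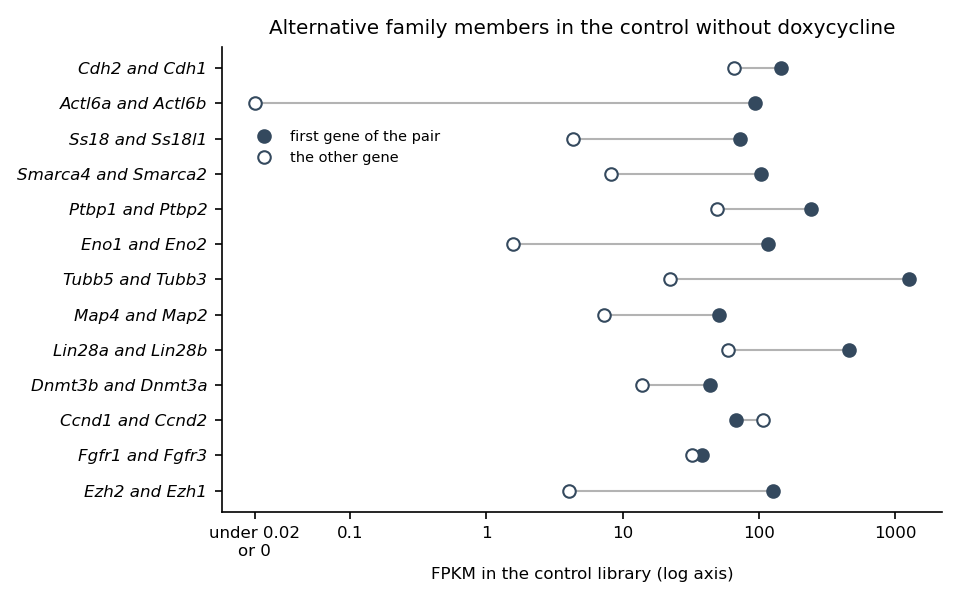
Control FPKM on a log axis for 13 pairs of related genes, with a filled circle for the first and an open circle for the other gene of each pair. The gap is widest for Actl6a at 93.3 and Actl6b at 0, and narrowest for Fgfr1 and Fgfr3.

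Signalling genes were read by role, beside the 55.4% of all features at or above 1 FPKM. For Notch, 20 of 25 members were at or above 1 FPKM, with a median of 11.7. The receptors Notch3, Notch2 and Notch1 had 30.4, 24.4 and 12.8 FPKM, the ligands Dll1 and Jag1 20.3 and 11.7, and the targets Hes1 and Hes5 25.5 and 14.3. Dll3 and Dll4 were low with 0.782 and 0.178. For FGF, 17 of 25 members were. The receptors Fgfr1, Fgfr3 and Fgfr2 had 38.4, 32.5 and 17.9 FPKM, and the feedback genes Spry2 and Dusp6 had 54.7 and 19.1. The highest secreted ligands were Fgf3 with 9.28 and Fgf15 with 8.31, and Fgf13, a relative that stays inside the cell, had 10.2.

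For Wnt, 29 of 36 members were at or above 1 FPKM, against 55.4% of all features. Ctnnb1, which encodes beta-catenin, had 409 FPKM, the receptors Fzd7 and Fzd3 had 82.1 and 74.6, and the secreted inhibitors Sfrp1 and Sfrp2 had 106 and 80.7. Wnt8a and Wnt4 were the highest ligands, with 9.90 and 9.22. For BMP, activin and Nodal, 28 of 33 members were. The targets Id3, Id2 and Id1 had 89.9, 82.6 and 41.3 FPKM, the receptor Bmpr1a had 55.1, and the antagonist Fst had 46.0. Bmp7 was the highest BMP ligand with 15.9, against 5.82 for Bmp4 and 5.08 for the antagonist Nog. In the chromatin list 35 of 38 members were at or above 1 FPKM, led by Rbbp7 with 209, Smarce1 with 139 and Ezh2 with 126.

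The most abundant features were those of protein synthesis. Leaving out short RNA features by symbol, the top 25 held 11.1% of the summed level and the top 1000 held 58.2%. The short RNA Rn4.5s, on chromosome 6 from 47702750 to 47702924 (mm9), was missed by this filter and had 1826 FPKM. Eef1a1, the elongation factor that brings transfer RNA to the ribosome, was the highest with 5670 FPKM, and 5652, 5625 and 6362 in the knockdown libraries. Genes for ribosomal proteins took 12.7% of the summed level, over 84 features, and Rpl41 and Rps18 among them had 4745 and 3125 FPKM. The chaperone Hsp90ab1 had 3015, Ptma, a nuclear acidic protein of dividing cells, 2654, and Npm1, a nucleolar chaperone, 1775. Crabp1 was the only gene of the named lists among the top 25. Of the 25 features 4 are predicted genes, copies or repeats, such as LOC624853, which shares its position with Hspa8, so the levels of both are uncertain.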

How the data were processed

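RNA of 4 libraries was measured, and 1 of them, the control without doxycycline, is described. The authors deposited FPKM values made with TopHat, Cufflinks and Cuffdiff on mm9, per the submitters' processing notes; the sources used here give neither versions nor the annotation. Each of 3 deposited tables sets 1 knockdown library beside the control, and the control's level is the mean of its 3 values. These agreed within 1% in 94.1% of the 15615 features above 0 in every table. The 2 files of marked features were not used. FPKM are not counts. Exact 0 values can be failed estimates, and 181 features carry a failed status in at least 1 table. Such 0 values entered the means, so the level and rank of a feature that failed in only some tables can be too low.

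Computed with pandas 2.3.3 in Python 3.11.15 were list counts at or above 1 FPKM, medians, ranks and ratios, and depth from the lowest step of FPKM times GENCODE M21 transcript length, a method that recovered the depth of simulated counts with exactly known lengths. In the control 64.2% of the values around the lowest step lay within 10% of it, and 71.7% of low values lay within 10% of 1 to 3 fragments. No model was fitted and no test was run, because the control has 1 library. Members and lists were chosen with earlier results of these data known. The text names the 7 markers, up to 8 leading members of each list, members below 0.1 FPKM, the top 25 features, the leading family factors and the fixed pairs; other genes, chiefly defining markers and low members, were named after their values were seen. Older symbols were matched through RefSeq's synonyms for 11 entries of 777, and Rbfox3 was not matched. Promoters were compared over no gene set, since 77.6% of features had an entry and 80% was needed. Coordinates are as the authors give them, in mm9, except for the promoters. A few list members count in the totals but are not reported here by name.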

Additional observations from a re-analysis of the deposited data

How the results depend on the processing

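No paired analysis was possible because the control is 1 library and no test was run; for the same reason no replicate could be left out. Over 44 results and 270 alternative values, 261 counted as the same as the reported value (for counts, within 1.5 times), 9 moved further and 0 changed direction. With 2 FPKM as the level that counts as present, 5 forebrain, 3 mesoderm, 11 neural crest and 4 muscle genes were present. With 0.5 FPKM, 11 Hox, 8 mesoderm and 6 blood and endothelial genes were. Only 8 of the top 25 features stayed there when short RNA features were ranked with the rest. With 1 FPKM added to both genes, the log2 ratio of Eno1 to Eno2 was 5.50 instead of 6.20. Using 1 table alone moved no count by over 1.5 times. Levels under about 0.25 FPKM rest on 3 fragments or fewer in a transcript of 2 kb.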

Other observations

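Lists of 3 further gene groups were added after the data were seen; some members, such as Peg10, Sparc and Fn1, also stand in the lists above. Of 30 imprinted genes 25 were at or above 1 FPKM in the control, with a median of 25.2, against 55.4% and 2.24 for all features. Mest had 638 FPKM, and 601, 699 and 600 in the knockdown libraries, Grb10 had 241, Peg3 116, Rian 104 and Meg3 93.0. H19, the growth-restraining RNA beside Igf2, had 2.41 FPKM while Igf2 had 77.1, and Plagl1 had 0.0909. The maternally expressed Meg3 and Rian were thus present, while Dlk1 of the same domain had 1.47.

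Of 25 basement membrane and matrix genes 21 were at or above 1 FPKM, against 55.4% of all features. Of the laminin chains, Lamc1 with 240, Lamb1 with 219 and Lama1 with 179 FPKM were the highest, whereas Lama5 had 20.9, Lama4 1.13 and Lama2 0.0322. The nidogens Nid2 and Nid1 had 44.5 and 39.0, and the receptor subunit Itgb1 had 143. Of 20 glycolysis genes 20 were at or above 1 FPKM and 12 at or above 100, against 55.4% and 4.77% of all features. Pkm had 1318, Pgk1 615, Ldha 601 and the glucose transporter Slc2a3 498 FPKM. Gapdh had 319, and Hk2 had 42.6 against 14.8 for Hk1.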
